A study of Mus musculus with 9 samples.

Results

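The 10 genes described here mark T cells and natural killer (NK) cells, and were followed across 3 mouse strains and 2 air pressures in whole lung. They were Cd3e, Cd3g, Cd8a, Ms4a4b, Nkg7, Gzma, Gzmb, Prf1, Klrd1 and Ncr1. Each was represented by the probe sets that the platform's annotation gives to that gene symbol alone, 16 probe sets for 10 genes, of 45037 probe sets and 18193 genes in all. Of the 16, 13 passed the filter on dim probe sets, and every one of the 10 genes kept at least 1. The 3 that did not pass were 2 of the 5 probe sets for Cd8a and 1 of the 2 for Ms4a4b.

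T cells recognise antigen through the T cell receptor, whose signal is carried into the cell by the CD3 chains, and CD8 is the co-receptor that holds a cytotoxic T cell to class I MHC. NK cells carry no rearranged receptor and weigh activating against inhibitory surface receptors instead. Both kinds of killer cell store perforin and granzymes in granules: perforin makes pores in the target's membrane and granzymes are the proteases that then enter and start cell death. The lung holds many T and NK cells in its capillaries, its interstitium and its airway lymphoid tissue, so whole-lung RNA includes theirs.

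The hypoxic groups were BL6 (the C57/BL6 strain), FVB/N and SV129 animals kept for 4 weeks at 50 kPa, with 2 arrays per strain. The normoxic groups were the same strains kept for 4 weeks at 85 kPa, the ambient pressure in Denver and so not sea level, with 1 array per strain. No other allele or agent was named for any group, and neither age nor the number of animals behind an array was given. Nothing in the labels says whether each array stands for its own animal; the p-values below therefore reflect the spread among these arrays alone, and that spread may be technical. The material was right lung homogenate, in which fewer cells of a type and less RNA per cell cannot be told apart.

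Values are the deposited signal intensities, whose precision is limited by the number of arrays, 9. Changes are log2 differences of signal + 16 after quantile normalization, given ± SE, and folds are on that scale, which understates the change of dim probe sets. The adjusted p-values given come from limma, with the Benjamini-Hochberg method applied to all 27022 probe sets past the filter, and a probe set was called at an adjusted p below 0.05. Kidney transcripts were high on hypoxic BL6 array 2 and normoxic FVB/N array 1, where 11 kidney markers summed to 75668 and 116459, against 616 to 1523 on the other 7 arrays. The 8 markers of brown fat and fast muscle summed to 20117 on the normoxic FVB/N array, and to 1022 to 1919 elsewhere. The 8 pan-leukocyte markers summed to 26732 to 28619 on BL6 arrays, 21152 to 33407 on FVB/N arrays and 26623 to 27506 on SV129 arrays, and the lowest of these sums was that of normoxic FVB/N array 1. Of 7 thymocyte markers, Rag1, Rag2, Dntt, Ptcra and Arpp21 were below the filter, with signals of at most 67.9; Cd1d1 and Themis, which mature lymphocytes also express, passed it.

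**Figure D1:**
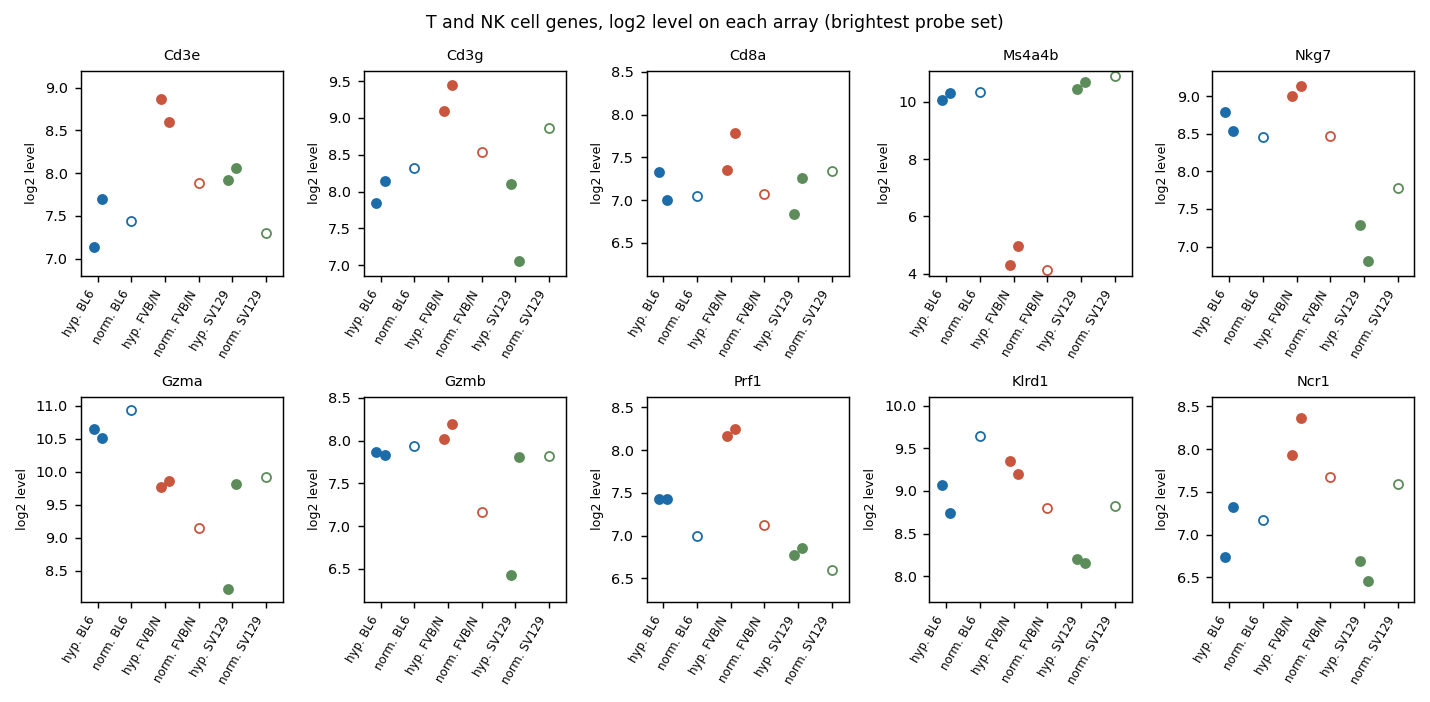
Log2 level after quantile normalization (vertical axis, a separate range for each gene) of the brightest probe set of each of the 10 genes, by group (horizontal axis). Filled points are hypoxic arrays and open points are normoxic arrays, 1 point per array. Ms4a4b lay between 4.12 and 4.95 on the 3 FVB/N arrays and at 10.08 or more on the other 6 arrays.

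With pressure held fixed in the model, few of these genes were called between strains. The signal of the Ms4a4b probe set was far lower in FVB/N than in either other strain, and Nkg7 and Prf1 were higher in FVB/N than in SV129. Between BL6 and FVB/N, 1 of the 13 tested probe sets was called (Ms4a4b, higher in BL6), where 2.07% of all probe sets were and 1.52% of all were higher in BL6. An unadjusted p below 0.05 was reached by 5, against 11.9% of all. The normalized levels of BL6 and FVB/N did not overlap on 7 of the 13, against 14.9% of all probe sets. Between BL6 and SV129 none of the 13 was called by limma, where 2.51% of all were; 4 had an unadjusted p below 0.05, against 15.9% of all, and 6 did not overlap, against 21.7% of all. Between FVB/N and SV129 3 were called, 2 higher and 1 lower in FVB/N, where 2.89% of all were, 1.06% of all being higher and 1.83% lower. An unadjusted p below 0.05 was reached by 8, against 16.3% of all. On 4 of the 13 the arrays of those strains did not overlap, against 17.8% of all. The median difference of the 13 was 0.69 for FVB/N minus SV129, with 11 above 0, beside a median of −0.03 over all probe sets. It was −0.39 for BL6 minus FVB/N, with 4 above 0, beside −0.01, and 0.16 for BL6 minus SV129, with 9 above 0, beside −0.03. These pairwise comparisons share arrays and are not independent of one another.

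**Figure D2:**
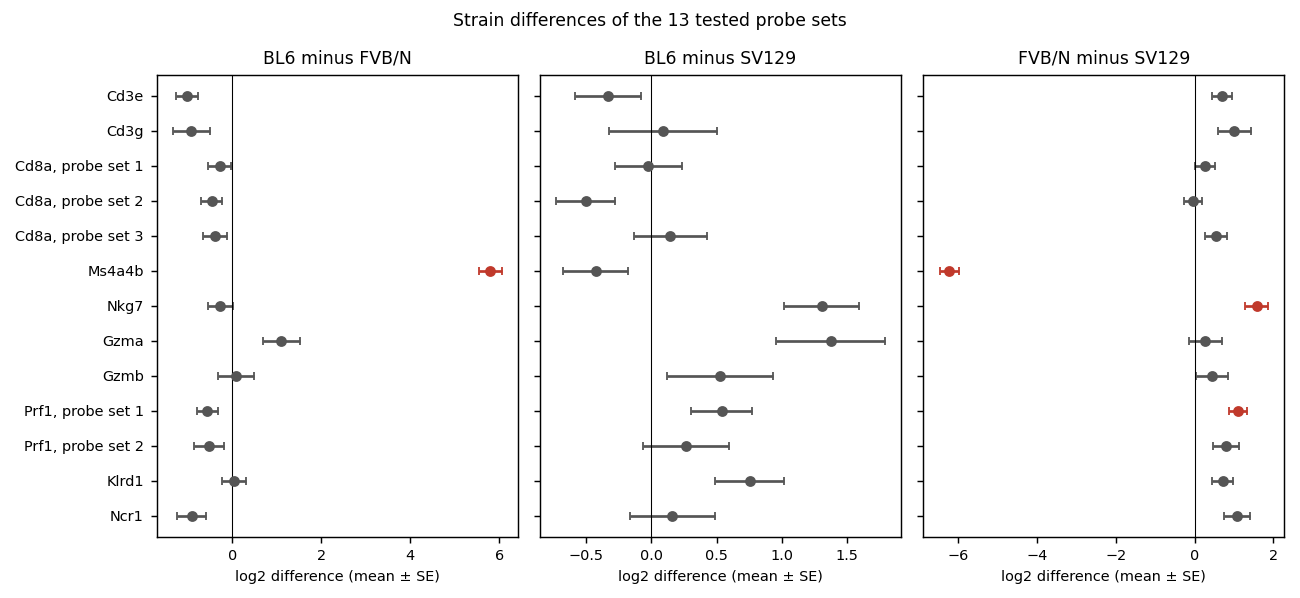
Log2 difference between strains (horizontal axis, mean ± SE, each panel with its own range) for the 13 tested probe sets of the 10 genes, in BL6 minus FVB/N, BL6 minus SV129 and FVB/N minus SV129. Red marks the probe sets called at an adjusted p below 0.05, which were Ms4a4b at fitted values of 5.80 and −6.23 (FVB/N being below the level of the filter), and Nkg7 at 1.58 and Prf1 at 1.10 in FVB/N minus SV129. Numbered probe sets of Cd8a and Prf1 run from the brightest to the dimmest.

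Among the T cell surface genes, Ms4a4b encodes a membrane protein of the MS4A family with 4 membrane-spanning segments, found on T cells and NK cells of the mouse. Its brighter probe set (1423467_at) gave signals of 1053 and 1274 in hypoxic BL6 lung and 1287 in normoxic BL6 lung. In FVB/N it gave 2.98 and 13.8 in hypoxic lung and 1.74 in normoxic lung. SV129 had 1366 and 1668 in hypoxic lung and 1882 in normoxic lung. All 3 FVB/N arrays were thus close to 0 at both pressures, while every BL6 and SV129 array was at 1053 or more and the SV129 arrays lay above the BL6 arrays. All 3 FVB/N arrays were below the level of the filter (log2 6.13), and the probe set passed that filter through the strains where it was bright. No detection calls were at hand, so a fold is given as a bound, with each FVB/N array set no lower than the level of the filter. Ms4a4b was at least 17.5-fold higher in BL6 than in FVB/N and at least 23.5-fold lower in FVB/N than in SV129. The fitted log2 differences, whose size depends on the pseudocount, were 5.80 ± 0.251 (adjusted p = 1.11e-05) for BL6 minus FVB/N and −6.23 ± 0.251 (adjusted p = 7.32e-06, limma) for FVB/N minus SV129. BL6 minus SV129 was −0.43 ± 0.251 (adjusted p = 0.456) and hypoxia across strains 0.01 ± 0.218 (adjusted p = 0.987). Within strains, hypoxic minus normoxic was −0.15 in BL6, −0.32 in SV129 and 0.50 in FVB/N, none of them called. With FVB/N below the level of the filter, the value near 0 across strains does not show that the gene was unchanged.

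Both Ms4a4b differences passed under every alternative setting run, 21 for BL6 against FVB/N and 22 for FVB/N against SV129. Their fitted size moved with the pseudocount, to 7.75 and −8.18 with 1 and to 4.17 and −4.59 with 64. With both arrays that hold kidney transcripts left out they were 5.65 (adjusted p = 1.95e-04) and −6.02 (adjusted p = 7.72e-05, limma). The other probe set for Ms4a4b (1425325_at) was below the filter and gave 12.1 to 67.5 over all arrays. On it FVB/N, at 30.0 to 31.0, lay within the range of SV129, at 12.1 to 67.5. The same probe set was dim in BL6 as well, at 27.6 to 45.0, so it cannot decide whether the difference holds. The sequences of the individual probes were not used here, and whether they match the FVB/N allele was not tested, so the values show the reading of 1 probe set and not by themselves the amount of transcript.

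Ms4a4b spans chr19:11443558-11463549 (GRCm38.p6), on the plus strand, in a cluster of 21 Ms4a genes. Its 250 bases before the annotated start, chr19:11443308-11443557 on the plus strand in GRCm38.p6 (RefSeq), are shown because this was the member with the largest strain difference.
Ms4a4b: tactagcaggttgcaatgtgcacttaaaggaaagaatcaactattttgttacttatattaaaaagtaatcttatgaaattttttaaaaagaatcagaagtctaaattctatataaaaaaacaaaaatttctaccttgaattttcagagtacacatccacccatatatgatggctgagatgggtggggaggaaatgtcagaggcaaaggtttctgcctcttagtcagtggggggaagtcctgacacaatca
Short motifs of 4 kinds of factor known in lymphocytes were searched on both strands, here and in the promoters of Nkg7 and Prf1: AGGAAG (ETS), TGTGGT (RUNX), AGGTGTGA (T-box) and TTCNNNGAA (STAT). None of the 4 occurs in this window. Among 250-base windows of 32851 RefSeq promoters, 29.5% hold the ETS letters, 14% the RUNX, 1.12% the T-box and 7.02% the STAT letters. The absence of a match says only that these letters are not in this window. The window is that of the reference build, and no sequence of FVB/N or SV129 was used.

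The other genes of the Ms4a cluster were set beside Ms4a4b after its values were known. Of the 21 genes, 17 had a probe set, and 14 probe sets of genes other than Ms4a4b passed the filter. Of the 14, 1 was called between BL6 and FVB/N and 2 between FVB/N and SV129, where 2.07% and 2.89% of all probe sets were. Ms4a8a, a member described in epithelia, had signals of 271 to 530 in BL6, 2.47 to 47.7 in FVB/N and 207 to 335 in SV129. As with Ms4a4b, the FVB/N arrays lay below all others. These FVB/N arrays too were below the level of the filter, which the probe set passed through the other strains. By the same bound Ms4a8a was at least 5.16-fold higher in BL6 than in FVB/N (adjusted p of the fit = 0.00612) and at least 4.16-fold lower in FVB/N than in SV129 (adjusted p of the fit = 0.00908, limma). The second difference was not called without hypoxic SV129 array 2 (−2.97, adjusted p = 0.0501) or normoxic SV129 array 1 (−2.96, adjusted p = 0.0649). Ms4a8a starts at chr19:11067471, and several Ms4a genes lie between it and Ms4a4b.

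Of the immediate neighbours of Ms4a4b, Ms4a4c had 2 probe sets and neither was called (BL6 minus FVB/N 0.73 and 0.56, adjusted p = 0.197 and 0.452). Ms4a6c had 2 that did not go together. One (1457725_at) had 226 to 270 in BL6, 81.1 to 142 in FVB/N and 257 to 411 in SV129, and FVB/N minus SV129 was −1.58 (adjusted p = 0.0129, limma). The other (1450234_at) differed by −0.03 (adjusted p = 0.953). The first was not called without hypoxic FVB/N array 2 (−1.47, adjusted p = 0.0586), hypoxic SV129 array 2 (−1.56, adjusted p = 0.0553), normoxic SV129 array 1 (−1.34, adjusted p = 0.0855) or both kidney-transcript arrays (−1.42, adjusted p = 0.0629). Ms4a1, which encodes the B cell antigen CD20, Ms4a7, Ms4a6b, Ms4a4d, Ms4a6d and Ms4a2 had probe sets past the filter and none was called in these 2 comparisons.

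**Figure D3:**
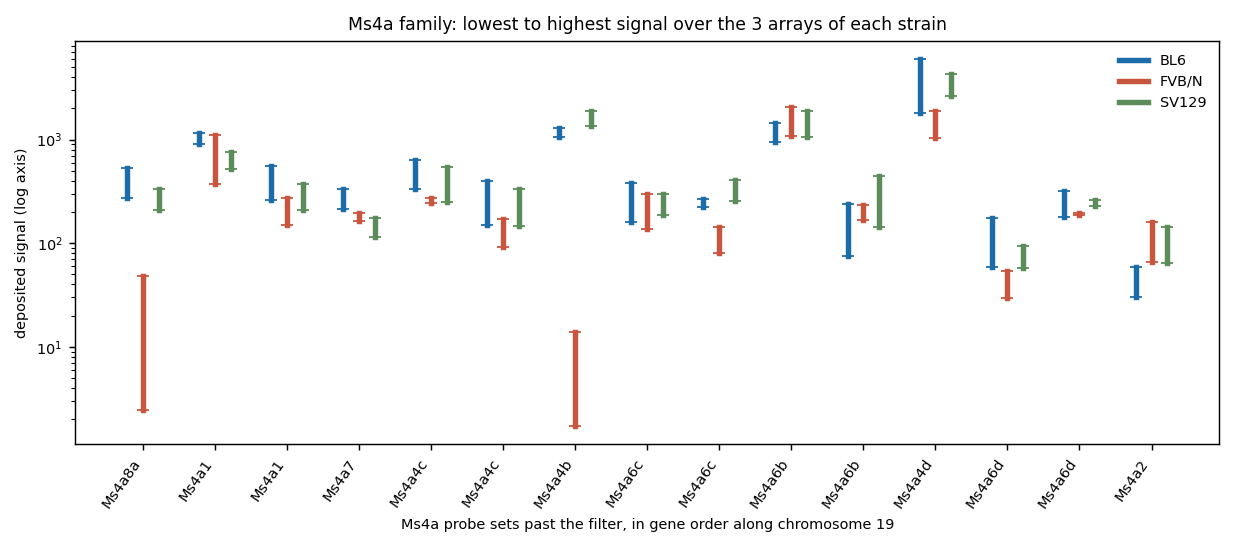
Lowest to highest deposited signal (vertical axis, logarithmic) over the 3 arrays of each strain, for each Ms4a probe set past the filter, in gene order along chromosome 19 (horizontal axis). The FVB/N bars of Ms4a4b (1.74 to 13.8) and Ms4a8a (2.47 to 47.7) lie well below those of BL6 and SV129, while for several other probe sets the bars of all 3 strains overlap.

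Cd3e and Cd3g encode the epsilon and gamma chains of the CD3 complex. Cd3e had signals of 130 and 187 in hypoxic BL6 lung and 171 in normoxic BL6 lung. In FVB/N it had 440 and 379 in hypoxic lung and 208 in normoxic lung. SV129 had 226 and 246 in hypoxic lung and 150 in normoxic lung. All FVB/N arrays were above all BL6 arrays, and SV129 overlapped both. BL6 minus FVB/N was −1.03 ± 0.252 (adjusted p = 0.0865), which missed the threshold, and FVB/N minus SV129 was 0.69 ± 0.252 (adjusted p = 0.218). In order, the strain means ran FVB/N, SV129 and BL6, and no neighbouring pair was called.

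Cd3g had 221 and 266 in hypoxic BL6 lung and 316 in normoxic BL6 lung. FVB/N gave 522 and 693 in hypoxic lung and 336 in normoxic lung. SV129 gave 258 and 118 in hypoxic lung and 453 in normoxic lung, the widest spread of the 3 strains. FVB/N arrays were again above all BL6 arrays, but FVB/N overlapped SV129. BL6 minus FVB/N was −0.92 ± 0.414 (adjusted p = 0.428) and FVB/N minus SV129 was 1.01 ± 0.414 (adjusted p = 0.270).

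Cd8a encodes the alpha chain of CD8 and had 3 tested probe sets. The brightest (1425335_at) had 150 and 105 in hypoxic BL6 lung and 127 in normoxic BL6 lung, 137 and 207 in hypoxic FVB/N lung and 114 in normoxic FVB/N lung, and 98.1 and 137 in hypoxic SV129 lung and 155 in normoxic SV129 lung. The strains overlapped on it. Over the 3 probe sets BL6 minus FVB/N was −0.28, −0.47 and −0.39 (adjusted p = 0.769, 0.469 and 0.674), and FVB/N minus SV129 was 0.26, −0.03 and 0.54 (adjusted p = 0.657, 0.958 and 0.380). The 2 Cd8a probe sets below the filter gave 28.3 to 96.9 and 1.26 to 37.1 over all arrays.

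Of the granule genes, Nkg7 encodes a membrane protein of cytotoxic granules. It had signals of 444 and 360 in hypoxic BL6 lung and 350 in normoxic BL6 lung. In FVB/N it had 489 and 561 in hypoxic lung and 321 in normoxic lung. SV129 had 139 and 96.8 in hypoxic lung and 214 in normoxic lung. Every SV129 array was below every array of both other strains, and BL6 and FVB/N overlapped. Nkg7 was 2.98-fold higher in FVB/N than in SV129 (1.58 ± 0.288, adjusted p = 0.0221, limma). BL6 minus SV129 was 1.31 ± 0.288 (adjusted p = 0.0523), just outside the threshold, and BL6 minus FVB/N was −0.27 ± 0.288 (adjusted p = 0.813). The call between FVB/N and SV129 was lost without hypoxic BL6 array 5 (1.56, adjusted p = 0.0529), FVB/N array 2 (1.50, adjusted p = 0.0854), FVB/N array 6 (1.43, adjusted p = 0.0955), SV129 array 2 (1.57, adjusted p = 0.0803) or SV129 array 5 (1.31, adjusted p = 0.0603). With both kidney-transcript arrays left out it was 1.91 (adjusted p = 0.0145).

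Prf1 encodes perforin, and its 2 probe sets differed. The brighter (1451862_a_at) had 161 and 149 in hypoxic BL6 lung and 122 in normoxic BL6 lung. In FVB/N it had 258 and 292 in hypoxic lung and 118 in normoxic lung. SV129 had 93.4 and 100.4 in hypoxic lung and 86.4 in normoxic lung, below all arrays of the other strains. It was 2.15-fold higher in FVB/N than in SV129 (1.10 ± 0.231, adjusted p = 0.0395, limma). Leaving out any single array but normoxic FVB/N array 1 ended this call, with differences of 0.98 to 1.29 and adjusted p of 0.0571 to 0.149. It was also lost with the authors' scaling alone (1.04, adjusted p = 0.0645) and with no filter on dim probe sets (adjusted p = 0.0764), and passed in 9 of 21 alternative settings. The difference was 1.37 with both kidney-transcript arrays left out (adjusted p = 0.0290). The dimmer probe set (1450335_at) had 74.9 and 62.0 in hypoxic BL6 lung and 81.5 in normoxic BL6 lung, 94.9 and 92.0 in hypoxic FVB/N lung and 132 in normoxic FVB/N lung, and 31.7 and 96.4 in hypoxic SV129 lung and 63.6 in normoxic SV129 lung. On it FVB/N and SV129 overlapped, and the difference was 0.79 ± 0.329 (adjusted p = 0.278).

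The promoters of Nkg7 and Prf1 are shown because these were the members called higher in FVB/N than in SV129. Nkg7 starts at chr7:43437138 and Prf1 at chr10:61297751, both on the plus strand. The windows are chr7:43436888-43437137 and chr10:61297586-61297750 (GRCm38.p6, RefSeq), and capitals mark matches to the 4 motifs on either strand.
Nkg7: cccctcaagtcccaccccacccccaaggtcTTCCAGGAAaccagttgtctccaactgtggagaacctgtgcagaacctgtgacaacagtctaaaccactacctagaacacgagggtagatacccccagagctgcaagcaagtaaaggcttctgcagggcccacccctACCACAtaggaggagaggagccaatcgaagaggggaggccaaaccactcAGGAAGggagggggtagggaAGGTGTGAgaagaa
Prf1: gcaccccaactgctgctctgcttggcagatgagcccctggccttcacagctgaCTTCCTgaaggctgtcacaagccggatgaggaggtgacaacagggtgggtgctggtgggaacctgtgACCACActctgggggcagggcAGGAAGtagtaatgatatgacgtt
The Nkg7 window holds 1 match each to the ETS, RUNX, T-box and STAT letters, the RUNX match on the minus strand. The Prf1 window holds 2 matches to the ETS letters, 1 on each strand, and 1 to the RUNX letters on the minus strand. No matches overlap. Among promoter windows of 165 bases, as used for Prf1, 19.9% hold the ETS, 9.52% the RUNX, 0.764% the T-box and 4.86% the STAT letters. These matches describe letters of the reference build and not bound sites. Whether the strains differ in these windows was not tested.

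Gzma and Gzmb encode granzymes A and B. Gzma had 1579 and 1451 in hypoxic BL6 lung and 1924 in normoxic BL6 lung. FVB/N gave 860 and 932 in hypoxic lung and 531 in normoxic lung. SV129 gave 283 and 875 in hypoxic lung and 960 in normoxic lung. All BL6 arrays were above all others, yet BL6 minus FVB/N was 1.10 ± 0.416 (adjusted p = 0.308) and BL6 minus SV129 was 1.37 ± 0.416 (adjusted p = 0.144), neither called. FVB/N and SV129 overlapped (0.27 ± 0.416, adjusted p = 0.788).

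Gzmb had 227 and 209 in hypoxic BL6 lung and 244 in normoxic BL6 lung. FVB/N gave 231 and 278 in hypoxic lung and 122 in normoxic lung. SV129 gave 71.2 and 206 in hypoxic lung and 219 in normoxic lung. After normalization all BL6 arrays were above all SV129 arrays, although the signals overlapped. No strain difference of Gzmb was called, the one with the smallest p being BL6 minus SV129 at 0.53 ± 0.408 (adjusted p = 0.579). Granzymes form a gene family of related sequence, and probe specificity among them was not checked here.

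Klrd1 encodes CD94, which pairs with NKG2 chains to form receptors for a non-classical class I MHC molecule. It had 533 and 419 in hypoxic BL6 lung and 787 in normoxic BL6 lung. FVB/N gave 634 and 583 in hypoxic lung and 409 in normoxic lung. SV129 gave 280 and 265 in hypoxic lung and 437 in normoxic lung. The hypoxic SV129 arrays were the lowest of all 9, but the normoxic one overlapped both other strains. FVB/N minus SV129 was 0.72 ± 0.266 (adjusted p = 0.224), and BL6 minus SV129 was 0.76 ± 0.266 (adjusted p = 0.207). With normoxic FVB/N array 1 left out they were 1.10 (adjusted p = 0.0180) and 0.75 (adjusted p = 0.0359), and both were then called. FVB/N minus SV129 was also called with both kidney-transcript arrays left out (1.13, adjusted p = 0.0303).

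Ncr1 encodes NKp46, an activating receptor of NK cells and related innate lymphoid cells. It had 94.4 and 137 in hypoxic BL6 lung and 139 in normoxic BL6 lung. FVB/N gave 216 and 318 in hypoxic lung and 178 in normoxic lung. SV129 gave 87.5 and 71.8 in hypoxic lung and 185 in normoxic lung. FVB/N arrays were above all BL6 arrays, with a difference of −0.92 ± 0.328 for BL6 minus FVB/N (adjusted p = 0.273). FVB/N minus SV129 was 1.08 ± 0.328 (adjusted p = 0.141); after normalization all FVB/N arrays were above all SV129 arrays, by a narrow margin for the normoxic pair (log2 levels 7.68 and 7.59). BL6 minus SV129 was 0.16 ± 0.328 (adjusted p = 0.853).

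Markers of other leukocytes differed between the strains too. The 9 macrophage and dendritic markers summed to 20836 to 24739 in BL6, 11577 to 12655 in FVB/N and 23132 to 26572 in SV129. Of the 9, 3 were called lower in FVB/N than in SV129, where 1.83% of all probe sets were. Higher in BL6 than in FVB/N were 4, against 1.52% of all. Between BL6 and SV129 1 of the 9 was called, lower in BL6, where 2.51% of all probe sets were called. The 8 neutrophil markers summed to 4385 to 7195 in BL6, 13570 to 25316 in FVB/N and 1578 to 8061 in SV129. Of the 8, 2 were called higher in FVB/N than in SV129, where 1.06% of all probe sets were. Between BL6 and SV129 1 of the 8 was called, higher in BL6. The 9 B cell markers summed to 5549 to 6445 in BL6, 3132 to 5849 in FVB/N and 3633 to 4010 in SV129, so that BL6 lay above SV129 on every array. None of the 8 tested was called between strains, where 2.07% to 2.89% of all probe sets were. Single markers reached low signals, down to 4.41 for Marco and to 3.69 for Pax5, which was below the filter. Their part in the strain differences of the T and NK cell genes was not tested.

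Lists of other T and NK cell genes, from the same cell types and pathways, gave few calls between strains. Of 25 genes of the T cell receptor complex and its signalling, 21 were tested. None was called between BL6 and FVB/N or between FVB/N and SV129 (limma), where 2.07% and 2.89% of all probe sets were. Between BL6 and SV129 1 was called, where 2.51% of all were. An unadjusted p below 0.05 was reached by 9, 4 and 5 of the 21 in that order, where 11.9%, 16.3% and 15.9% of all probe sets reached it. The gene called between BL6 and SV129 was Cd28, the co-stimulatory receptor of T cells, with 111 and 81.1 in hypoxic BL6 lung and 124 in normoxic BL6 lung, against 228 and 315 in hypoxic SV129 lung and 257 in normoxic SV129 lung. BL6 was below SV129 on every array (−1.24 ± 0.263, adjusted p = 0.0439), and the call passed in 6 of 20 alternative settings. With 1 array left out it passed for normoxic BL6 array 1 and normoxic FVB/N array 1 and for no other (adjusted p up to 0.228). In FVB/N, Cd28 had 312 and 302 in hypoxic lung and 154 in normoxic lung (BL6 minus FVB/N −1.18 ± 0.263, adjusted p = 0.0625). Ctla4, the inhibitory counterpart of Cd28, differed by −1.71 ± 0.376 for BL6 minus FVB/N (adjusted p = 0.0594) and by −1.61 ± 0.376 for BL6 minus SV129 (adjusted p = 0.0646), both short of the threshold. The list's median difference was −0.64 for BL6 minus FVB/N, with 4 of 21 above 0, beside −0.01 over all probe sets.

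Of 14 transcription factors of T and NK cells, 9 were tested and none was called between any 2 strains (limma). Of all probe sets 2.07%, 2.51% and 2.89% were called in BL6 against FVB/N, BL6 against SV129 and FVB/N against SV129. In that order 4, 2 and 1 of the 9 had an unadjusted p below 0.05. Of all probe sets 11.9%, 15.9% and 16.3% did. All 9 factors were below 0 in BL6 minus FVB/N, with a median of −0.45, beside −0.01 over all probe sets. Satb1, a chromatin organiser in thymocytes, differed by −1.07 ± 0.293 (adjusted p = 0.125) and Bcl11b, needed for T cell commitment, by −0.84 ± 0.255 (adjusted p = 0.175).

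Of 32 NK receptor genes, 23 had a probe set and 12 were tested. None was called between BL6 and FVB/N (limma), where 2.07% of all probe sets were, and 2 had an unadjusted p below 0.05, against 11.9% of all. In each comparison with SV129 2 were called, both lower in SV129, where 2.51% of all probe sets were called for BL6 and 2.89% for FVB/N. Klrk1 encodes NKG2D, an activating receptor for stress-induced ligands, and had 217 and 195 in hypoxic BL6 lung and 212 in normoxic BL6 lung. FVB/N gave 150 and 246 in hypoxic lung and 172 in normoxic lung, and SV129 gave 64.8 and 76.7 in hypoxic lung and 114 in normoxic lung. All SV129 arrays were below all others for Klrk1. BL6 minus SV129 was 1.17 ± 0.238 (adjusted p = 0.0374) and FVB/N minus SV129 was 1.11 ± 0.238 (adjusted p = 0.0431, limma). Leaving out any single array ended the second call (0.91 to 1.31, adjusted p up to 0.149), and the first was called only without hypoxic FVB/N array 6 or normoxic FVB/N array 1 (adjusted p otherwise up to 0.186). Neither was called without both kidney-transcript arrays (1.11, adjusted p = 0.109, and 1.26, adjusted p = 0.0799).

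Klrb1b encodes an inhibitory receptor of the NKR-P1 family. It had 131 and 111 in hypoxic BL6 lung and 189 in normoxic BL6 lung. FVB/N gave 220 and 215 in hypoxic lung and 198 in normoxic lung, and SV129 gave 7.07 and 32.1 in hypoxic lung and 61.4 in normoxic lung. SV129 was again the lowest on every array. On 2 of its 3 arrays SV129 was below the level of the filter, so the folds are bounds. Klrb1b was at least 3.31-fold higher in FVB/N than in SV129 (fitted 2.44 ± 0.346, adjusted p = 0.00698), and this passed with any single array left out. It was at least 2.17-fold higher in BL6 than in SV129 (fitted 1.82 ± 0.346, adjusted p = 0.0278, limma), which was not called with a pseudocount of 1 (2.48, adjusted p = 0.0589). The BL6 call was lost without hypoxic BL6 array 2 (1.79, adjusted p = 0.0975) or 5 (1.84, adjusted p = 0.131), FVB/N array 6 (1.82, adjusted p = 0.0543), SV129 array 5 (2.01, adjusted p = 0.0536) normoxic BL6 array 1 (1.83, adjusted p = 0.0840) or both kidney-transcript arrays (1.75, adjusted p = 0.0619). Klra17, a member of the Ly49 receptor family, went the other way without being called. It had 14.8 and 32.1 in hypoxic BL6 lung and 54.9 in normoxic BL6 lung, 126 and 181 in hypoxic FVB/N lung and 34.5 in normoxic FVB/N lung, and 158 and 241 in hypoxic SV129 lung and 369 in normoxic SV129 lung. BL6, below the level of the filter on all its arrays, was below SV129 throughout (adjusted p = 0.0589). Genes of the NK gene complex are close paralogs that differ between mouse strains, and which of them a probe set detects is uncertain.

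Of 20 genes of granule content and release, 14 were tested and none was called between strains (limma). Of all probe sets 2.07%, 2.51% and 2.89% were called in BL6 against FVB/N, BL6 against SV129 and FVB/N against SV129. An unadjusted p below 0.05 was reached by 3, 0 and 4 of the 14 in that order. Of all probe sets 11.9%, 15.9% and 16.3% reached it. Rab27a, a small GTPase for granule docking, had the smallest p, with 0.88 ± 0.213 for BL6 minus FVB/N (adjusted p = 0.0819). Of 28 cytokine, chemokine and receptor genes, 18 were tested. None was called between BL6 and FVB/N (limma), where 2.07% of all probe sets were, and 1 had an unadjusted p below 0.05, against 11.9% of all. Between BL6 and SV129 1 was called, where 2.51% of all were, and between FVB/N and SV129 2 were called, where 2.89% of all were.

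Ccl5 encodes RANTES, a chemokine stored and released by cytotoxic T and NK cells. It had 1013 and 1162 in hypoxic BL6 lung and 1438 in normoxic BL6 lung, and 1045 and 1537 in hypoxic FVB/N lung and 1101 in normoxic FVB/N lung. SV129 had 381 and 298 in hypoxic lung and 741 in normoxic lung, below all other arrays. BL6 minus SV129 was 1.40 ± 0.267 (adjusted p = 0.0281) and FVB/N minus SV129 was 1.42 ± 0.267 (adjusted p = 0.0252, limma). With 1 array left out, the BL6 call passed only for hypoxic FVB/N array 6 and the normoxic FVB/N and SV129 arrays (adjusted p otherwise up to 0.155). The FVB/N call passed only for hypoxic BL6 array 2 and the 3 normoxic arrays (adjusted p otherwise up to 0.0922). Both passed with the pair of kidney-transcript arrays left out (1.39, adjusted p = 0.0367, and 1.72, adjusted p = 0.0181).

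Il18r1, a chain of the interleukin-18 receptor, went the other way. It had 1916 and 2824 in hypoxic FVB/N lung and 1480 in normoxic FVB/N lung, against 3305 and 4764 in hypoxic SV129 lung and 3876 in normoxic SV129 lung. FVB/N minus SV129 was −0.98 ± 0.210 (adjusted p = 0.0436), and it passed in 8 of 22 alternative settings. With 1 array left out it passed only for hypoxic FVB/N array 6 and hypoxic SV129 array 2 (adjusted p otherwise up to 0.214). With both kidney-transcript arrays left out it was −0.80 (adjusted p = 0.152). Ccl3, a chemokine gene of the same list, was also lower in FVB/N than in SV129 without being called (−1.51 ± 0.385, adjusted p = 0.0812, limma). For Ccl3, BL6 minus SV129 was −1.66 ± 0.385 (adjusted p = 0.0622), also not called.

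**Figure D4:**
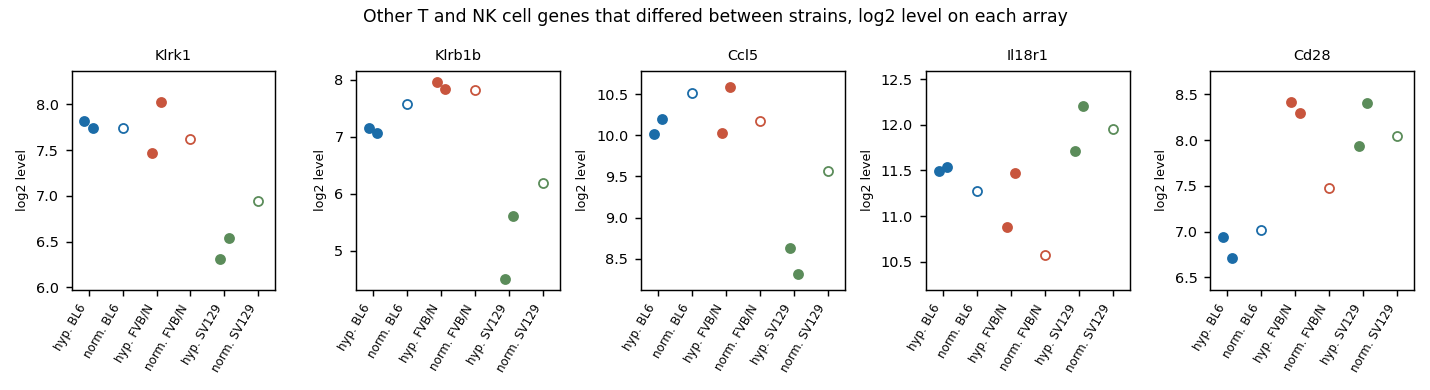
Log2 level after quantile normalization (vertical axis, a separate range for each gene) of 5 other T and NK cell genes that were called between strains, by group (horizontal axis). Filled points are hypoxic arrays and open points are normoxic arrays. SV129 lies lowest on all its arrays for Klrk1, Klrb1b and Ccl5, FVB/N lies below SV129 for Il18r1, and BL6 lies below SV129 for Cd28.

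The change with pressure was asked first across the strains. None of the 13 probe sets was called between hypoxic and normoxic lung (limma, smallest adjusted p = 0.135), where 3.76% of all probe sets were. An unadjusted p below 0.05 was reached by 3, against 22.2% of all. The change was above 0 for 8 and below 0 for 5, and their median change was 0.03, beside 0.04 over all probe sets. Prf1 on its brighter probe set had the smallest p (0.58 ± 0.20, adjusted p = 0.135), and it was the only one of the 13 on which every hypoxic array was above the normoxic array of its strain. Of all probe sets 14.5% had that pattern. Its other probe set changed by −0.19 ± 0.285 (adjusted p = 0.730). Cd8a on its dimmest tested probe set (0.60 ± 0.240, adjusted p = 0.182) and Cd3e (0.51 ± 0.218, adjusted p = 0.215) were the other 2 with an unadjusted p below 0.05.

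Within single strains the 13 probe sets lay on different sides of their normoxic array, and none was called in any strain. In FVB/N both hypoxic arrays were above the normoxic array for 12 of the 13 and below it for 1, the dimmer Prf1 probe set. Over all probe sets these shares were 51.4% and 31.3%. The 12 include Ms4a4b, whose 3 FVB/N arrays were all below the level of the filter, so its position there is not a measured change. In SV129 both were above for 2, both below for 8 and on either side for 3, where all probe sets gave 32.8% above and 30.4% below. In BL6 the counts were 3 above, 6 below and 4 on either side, with 40.6% and 37.8% over all. The median change of the 13, Ms4a4b included, was −0.07 in BL6, 0.61 in FVB/N and −0.32 in SV129, beside 0.02, 0.17 and 0.01 over all probe sets.

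By limma 0 of the 13 were called in BL6, where 0.0148% of all were, and 1 had an unadjusted p below 0.05, against 12.5% of all. In FVB/N 0 were called, where 6.8% of all were, and 3 had an unadjusted p below 0.05, against 26.1% of all. The smallest adjusted p was that of Prf1 (1.09 ± 0.304, adjusted p = 0.0735). In SV129 0 were called, where 0% of all were, and 4 had an unadjusted p below 0.05, against 7.58% of all. These 4 were Cd3g (−1.29 ± 0.441, adjusted p = 0.561), Ncr1 (−1.01 ± 0.384, adjusted p = 0.609), Nkg7 (−0.74 ± 0.314, adjusted p = 0.659) and Klrd1 (−0.64 ± 0.268, adjusted p = 0.659). Each of these tests sets a pair of hypoxic arrays against 1 normoxic array, which was assumed to vary like the hypoxic pairs. The normoxic FVB/N array is the one with the highest kidney sum and the lowest pan-leukocyte sum, and no value for FVB/N can be had without it. Their part in the FVB/N changes was not tested.

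Whether the change with pressure differed between strains was tested with an interaction term, and none of the 13 was called (limma, smallest adjusted p = 0.324, Klrd1), as none of all 27022 probe sets was (0%). Of the 13, Cd3g, Nkg7 and Klrd1 (3 in all) had an unadjusted p below 0.05, against 12.3% of all. Klrd1 changed by −0.74 ± 0.268 in BL6, 0.47 ± 0.268 in FVB/N and −0.64 ± 0.268 in SV129. Cd3g changed by −0.33 ± 0.441 in BL6, 0.73 ± 0.441 in FVB/N and −1.29 ± 0.441 in SV129.

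**Figure D5:**
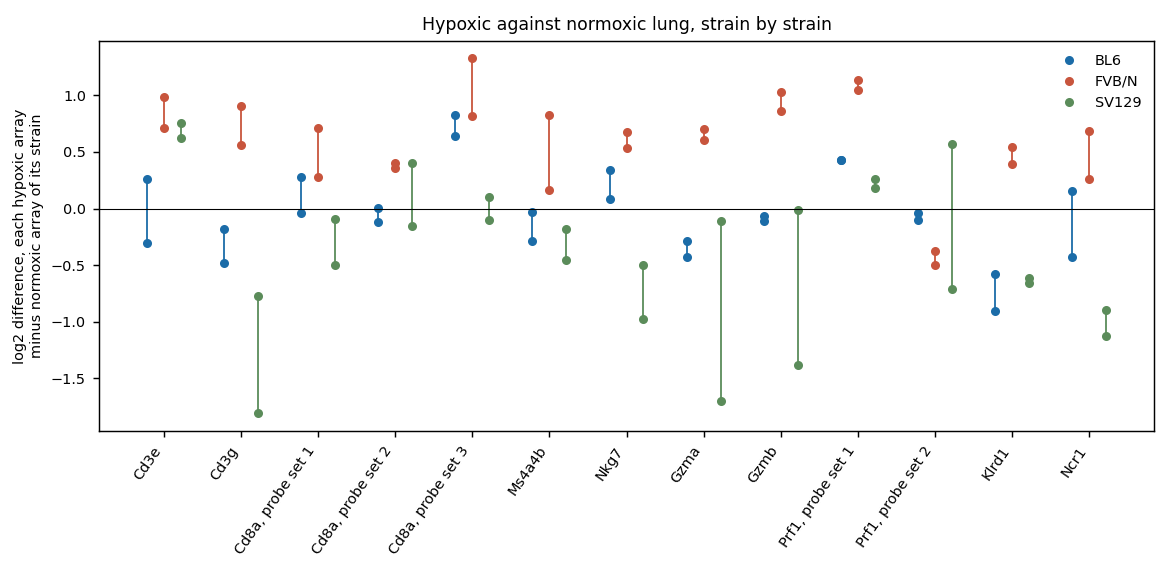
Log2 difference of each hypoxic array from the normoxic array of its strain (vertical axis) for the 13 tested probe sets (horizontal axis), in BL6, FVB/N and SV129. Points are arrays, 2 per strain, joined by a line. In FVB/N 12 of the 13 pairs lie above 0, and in SV129 8 lie below it. The FVB/N pair of Ms4a4b is among the 12, and for this probe set all FVB/N arrays were below the level of the filter.

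Of the other T and NK cell lists, none had a gene called for hypoxia across strains (limma), where 3.76% of all probe sets were called. An unadjusted p below 0.05 was reached by 5 of 21 T cell receptor genes, 0 of 9 transcription factors, 1 of 12 NK receptors, 0 of 14 granule genes and 3 of 18 cytokine and receptor genes. Over all probe sets 22.2% reached it. In FVB/N 4 of the 74 genes tested over the 5 lists were called, all higher in hypoxic lung. This is 5.41%, near the 6.8% called among all probe sets. Cd2, an adhesion receptor of T and NK cells, had 523 and 621 in hypoxic and 201 in normoxic FVB/N lung (1.36 ± 0.269, adjusted p = 0.0343). Cd8b1, the beta chain of CD8, had 391 and 358 in hypoxic and 147 in normoxic FVB/N lung (1.20 ± 0.284, adjusted p = 0.0497). S1pr1, the sphingosine phosphate receptor that guides lymphocyte exit and is also abundant in endothelium, had 3106 and 3333 in hypoxic and 1072 in normoxic FVB/N lung (1.52 ± 0.263, adjusted p = 0.0285). The 8 capillary endothelium markers summed to 69693 and 62319 on the hypoxic FVB/N arrays and to 40900 on the normoxic one, the lowest sum of the 9 arrays, and their part in this change was not tested. Srgn, the granule proteoglycan serglycin, changed by 0.69 ± 0.155 (adjusted p = 0.0446).

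None of these 4 calls passed without hypoxic FVB/N array 2 (adjusted p = 0.146 to 0.204) or without hypoxic FVB/N array 6 (adjusted p = 0.141 to 0.175), which leave 1 array against 1. The S1pr1 call passed with any other array left out. Fitting without an intensity trend ended all 4 calls (adjusted p = 0.0633 for Cd2, 0.0667 for Cd8b1, 0.0666 for S1pr1 and 0.153 for Srgn). Srgn was also lost with median centring (adjusted p = 0.125), with the authors' scaling alone (adjusted p = 0.0758) and with no filter (adjusted p = 0.0782), and Cd8b1 with no filter (adjusted p = 0.0837) and with robust eBayes (adjusted p = 0.0513). Cd2, Cd8b1 and Srgn were also not called without hypoxic BL6 array 2 (adjusted p = 0.0523, 0.0869 and 0.0523) or 5 (adjusted p = 0.05003, 0.0854 and 0.0510), and Cd8b1 not without normoxic SV129 array 1 (adjusted p = 0.0504). The T cell receptor list had a median change of −0.06 in BL6 (10 of 21 above 0), 0.78 in FVB/N (18 of 21) and −0.30 in SV129 (4 of 21). The NK receptor list had −0.28 in BL6 (3 of 12 above 0), 0.11 in FVB/N (10 of 12) and −0.57 in SV129 (1 of 12). In the same order of strains the transcription factors had −0.21, 0.50 and −0.42. The granule list had −0.09, 0.31 and −0.05, and the cytokine and receptor list 0.10, 0.46 and −0.04. Over all probe sets the medians were 0.02, 0.17 and 0.01, so the NK receptor value in FVB/N was below that of all probe sets. No gene of any of the 5 lists was called by the interaction term (limma), as no probe set was. Its unadjusted p was below 0.05 for 6 of 21 T cell receptor genes, 3 of 9 transcription factors and 3 of 12 NK receptors. The same held for 1 of 14 granule genes and 2 of 18 cytokine and receptor genes, against 12.3% of all probe sets.

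The 10 genes did not move as a block over the 9 arrays. Over their brightest probe sets the pairwise correlations ran from −0.759 (Ms4a4b with Ncr1) to 0.939 (Cd3g with Ncr1), and Nkg7 with Klrd1 gave 0.815, Gzma with Gzmb 0.814 and Nkg7 with Prf1 0.793. The lowest values were pairs with Ms4a4b, which was below the level of the filter on every FVB/N array. Among pairs without Ms4a4b the lowest was −0.370 (Cd3e with Gzma), and most were positive. These arrays share strains and pressures, and the correlations are descriptions. The mean standardised level of the 10, Ms4a4b included, was 0.05 and 0.05 on the hypoxic BL6 arrays, 0.66 and 0.96 on hypoxic FVB/N and −0.98 and −0.59 on hypoxic SV129. It was 0.20 on normoxic BL6, −0.32 on normoxic FVB/N and −0.03 on normoxic SV129. Among 12885 other genes, those whose levels followed this mean most closely over the 9 arrays were Cemip2 (r = 0.956), Tbc1d4 (r = 0.952), Gimap7 (r = 0.945), Hey2 (r = 0.944), Gpr183 (r = 0.941), Slc2a3 (r = 0.939), Vamp3 (r = 0.929), Ipo7 (r = 0.927), Sfmbt2 (r = 0.921) and Rpl12 (r = 0.914). They are the highest of 12885 correlations over 9 arrays, and such values can arise by chance.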

How the data were processed

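Total RNA from right lung was purified on silica columns and labelled with biotin by the authors (per the labels' protocols). Each probe set has 1 deposited value per array, a linear signal intensity. Each array had been scaled by the authors to a mean of 500, with 2% trimmed at either end, as the values themselves show. No software name is given in the sources used. The 12 further arrays that the series' design text mentions were not analysed here.

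Signals were taken as log2(signal + 16) and quantile normalized. After 64 control probe sets were removed, the dimmest 40% by mean over the 9 arrays were left out, leaving 27022. Models were fitted in R 4.3.3 with limma 3.58.1 (lmFit, eBayes with an intensity trend). Strain and pressure entered additively (5 residual degrees of freedom). A model of the 6 groups gave the changes within each strain and their interaction (3 residual degrees of freedom). The scripts were tested on simulated data. Every member gene identifier matched the RefSeq gene table. Named genes were the 10 members and, from 5 fixed lists of T and NK cell genes, those called or, where fewer than 3 were called, some with the smallest p. A gene of a list was represented by its brightest probe set. Promoter sequences were those of RefSeq (GRCm38.p6) and were found for 9 of the 10 members, not Klrd1. Alternatives varied the normalization, pseudocount, filter, variance model, arrays and replicate block. The members and lists were chosen with earlier results of these data known.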

Additional observations from a re-analysis of the deposited data

Results flagged for a closer look

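On 3 of the 13 tested probe sets, 1 of the 6 hypoxic arrays lay far from the others, and in each case it was hypoxic SV129 array 2, which was low. Its log2 level was 8.227 for Gzma, where the nearest hypoxic array was at 9.76. For Gzmb it was 6.432, with the nearest at 7.81. For Prf1 on the dimmer probe set (1450335_at) it was 5.53, with the nearest at 6.40. The gap was 0.634, 0.783 and 0.636 of the range over the 6 hypoxic arrays. Chance flags about 1 in 20 groups of arrays, and the 6 arrays include 3 strains. Without this array and both arrays with kidney transcripts, 2 members were called between FVB/N and SV129, Ms4a4b (−6.16, adjusted p = 2.26e-04) and Nkg7 (2.00, adjusted p = 0.0296, limma), while Prf1 was at 1.32 (adjusted p = 0.0716). That setting was chosen after seeing the data.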

How the results depend on the processing

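No member was called for hypoxia, across strains, within a strain or by interaction, under any alternative run, and no called value changed sign. The count for BL6 against FVB/N stayed at 1. For BL6 against SV129 it was 0 in the main setting, 1 with median centring, with robust eBayes and with only the 6 hypoxic arrays (Nkg7 each time), and 0 to 2 with 1 array left out. It was 2 without normoxic FVB/N array 1 (Nkg7 and Klrd1) and 1 without normoxic SV129 array 1 (Nkg7). For FVB/N against SV129 the 3 calls became 1 to 4 with 1 array left out, with 1 (Ms4a4b) without hypoxic BL6 array 5, FVB/N array 2 or 6, or SV129 array 2 or 5. With the array number as a replicate block the count was 1 (Ms4a4b), with Nkg7 at 1.30 (adjusted p = 0.194) and Prf1 at 0.96 (adjusted p = 0.285, limma). Same-numbered hypoxic arrays of different strains did not deviate together (r = −0.026, −0.042 and −0.188), so the numbers are not taken as a pairing. Without both arrays with kidney transcripts it was 4, with Klrd1 added. Over 106 pairs of a probe set and a comparison, 2008 alternatives were run: 1867 kept the side of the threshold, 133 lost a call and 8 gained one, and 60 turned the sign of a value called in neither setting. The alternatives for genes that are not members were added after seeing the data. The causes of these losses were not tested. With 1 normoxic array per strain, changes within a strain rest on that array, and no signal over background was available to set a detection limit.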
